A study of Mus musculus with 48 samples.

Results

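Palmitate-rich diets were compared with oleate-rich diets in the epididymal fat pad, the white adipose tissue beside the testis, of C3H/HeOuJ mice. This is an inbred strain; it carries a working Tlr4, which the related C3H/HeJ strain lacks. The libraries were chosen by diet label alone: the 33 of 48 libraries of the series that came from the 4 custom diets. Each fat was crossed with each carbohydrate, which made 8 SUCROSE/PALMITATE and 9 SUCROSE/OLEATE libraries beside 7 STARCH/PALMITATE and 9 STARCH/OLEATE libraries. All 4 diets held 42% of calories as carbohydrate and 42% as fat and were given for 6 months with free access. CHOW, a standard diet given for the same time (n = 8), is used below as a level for reference; a Western diet (n = 7) entered the fit and is not described. The labels give neither age nor sex, and they number the libraries without tying each to an animal, so p-values measure the spread between these samples.

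Palmitate is a saturated fatty acid and oleate a monounsaturated one, and both are common in animal and plant fats. As background, saturated fatty acids are known to provoke inflammatory signalling in cultured macrophages in part through Toll-like receptor 4, while oleate is usually milder in such cultures. Enlarged fat pads of mice on rich diets gather macrophages around dying adipocytes; many of these carry CD11c and the lipid receptor TREM2, whereas resident macrophages of lean fat carry scavenger receptors such as CD163. Total RNA of the pad was read on the NanoString nCounter Mouse Immunology panel, in which a barcoded probe pair per gene is counted without amplification. Values are counts scaled to 14 reference genes of the panel, and a difference is a log2 difference ± SE between the mean of both palmitate diets and the mean of both oleate diets. A gene is said to have risen or fallen where edgeR's quasi-likelihood test gave an adjusted p below 0.05 (Benjamini-Hochberg over all genes tested). Counts of palmitate libraries above or below the oleate mean set each against the log mean of the oleate diet with its own carbohydrate. Shares over all tested genes were not taken for these counts.

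Start regions of 3 genes on which the results turn are shown, each from 250 bases before to 50 after the gene's start (RefSeq, GRCm38.p6, plus strand): Trem2, the receptor of lipid-associated macrophages, which fell, at chr17:48346151-48346450; Tfrc, the transferrin receptor, whose fat difference varied with carbohydrate, at chr16:32608646-32608945; and Pparg, the master regulator of adipocytes, which rose, at chr6:115360894-115361193. Capitals mark matches to either of 2 motifs searched on both strands: AGGAAGT, a core bound by ETS factors such as the macrophage factor PU.1, and AGGTCA, the element recognised by nuclear receptors such as the product of Pparg. The motifs do not overlap in these windows. In Trem2 the capitals are AGGTCA read on the opposite strand.
Trem2: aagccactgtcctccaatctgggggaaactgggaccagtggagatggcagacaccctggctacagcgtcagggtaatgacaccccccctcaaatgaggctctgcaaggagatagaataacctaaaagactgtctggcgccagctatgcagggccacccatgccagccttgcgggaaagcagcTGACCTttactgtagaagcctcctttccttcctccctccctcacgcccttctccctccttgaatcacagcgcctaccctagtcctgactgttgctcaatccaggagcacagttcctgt
Tfrc: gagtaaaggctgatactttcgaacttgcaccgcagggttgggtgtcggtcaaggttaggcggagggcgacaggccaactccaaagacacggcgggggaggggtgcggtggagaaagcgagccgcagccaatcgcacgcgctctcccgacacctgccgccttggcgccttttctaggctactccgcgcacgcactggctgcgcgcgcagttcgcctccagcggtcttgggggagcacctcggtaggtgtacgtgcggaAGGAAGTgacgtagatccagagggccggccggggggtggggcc
Pparg: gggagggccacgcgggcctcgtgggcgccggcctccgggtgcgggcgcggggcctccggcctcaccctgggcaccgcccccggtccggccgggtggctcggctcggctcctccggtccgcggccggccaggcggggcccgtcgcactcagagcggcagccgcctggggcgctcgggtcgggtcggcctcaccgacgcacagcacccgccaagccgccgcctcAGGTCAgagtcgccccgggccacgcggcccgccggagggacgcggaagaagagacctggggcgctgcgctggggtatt
Each is 1 annotated start, since the table holds 2 such windows for Tfrc and 3 for Pparg. AGGAAGT stood in a window of 18.4% of the 87 genes that fell and have one and of 10% of the 40 that rose, against 19.02% of 368 tested genes and 10.7% of all 27025 genes with a window. For AGGTCA these shares were 13.8%, 22.5%, 16.6% and 18.1%. A match is a run of letters and says nothing about binding.

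Of the 491 genes tested, 53 were higher on the palmitate diets (10.8%) and 116 were lower (23.6%). The median difference of all tested genes was -0.05, and that of the called genes was 0.49 in size, with 14 genes at 1 or more. On the lower side stood genes of macrophages, with all 22 tested markers below 0, whereas the higher side held adipocyte and MHC class I genes and a set of genes read at low counts or in few libraries. Of the 116 lower genes 111, and of the 53 higher ones 49, had the same sign with sucrose and with starch. These genes were called on the mean of both contrasts, which itself favours a shared sign. Under each carbohydrate on its own, 10 genes were called in the same direction, of 18 called with sucrose and 160 with starch. What number unrelated calls would share was not tested. With CHOW as reference, 106 of the 116 lower genes had a CHOW mean below both fats (66.6% of all tested genes). In 112 of the 116 the palmitate mean was the nearer to CHOW (74.7% of all tested genes). For the 106 genes this follows from the call and is not a separate result. Of the 53 higher genes, 28 had a CHOW mean above both fats (18.1% of all tested genes), where a nearer palmitate mean again follows from the call. The palmitate mean was the nearer in 40 of the 53 (75.5%).

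**Figure D1:**
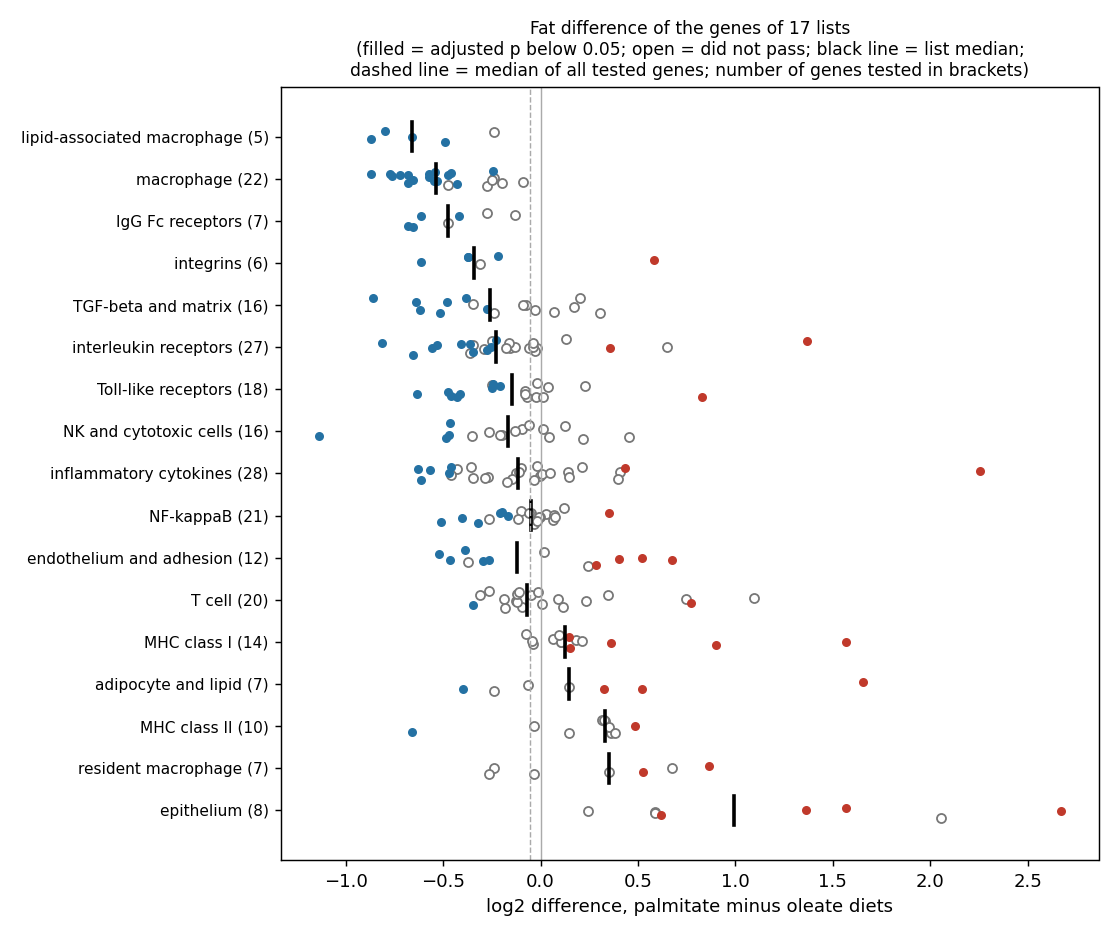
Log2 difference between the palmitate and oleate diets (horizontal axis) for the tested genes of 17 lists; each point is a gene, filled in colour where the adjusted p was below 0.05, and black lines are list medians. The macrophage and lipid-associated macrophage lists lie wholly below 0, with medians of -0.54 and -0.66, while the epithelium list lies wholly above it.

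Markers shared by most macrophages were lower on palmitate. Of 22 tested, 16 fell and none rose, with a median of -0.54 beside -0.05 for all genes. With sucrose alone 0 of them passed, at a median of -0.35, and with starch alone 14 fell, at a median of -0.63. Of all tested genes, 1.43% fell with sucrose and 24.2% with starch. Emr1, which encodes the macrophage marker F4/80, had lowest, median and highest scaled counts of 1529, 2643 and 5272 on SUCROSE/PALMITATE, 2714, 4184 and 4910.5 on SUCROSE/OLEATE, 1645, 3559 and 5455 on STARCH/PALMITATE and 4049, 5151 and 6401 on STARCH/OLEATE. The difference was -0.53 ± 0.18 (adjusted p = 0.019), with 12 of 15 palmitate libraries below the oleate mean, and the ranges of the fats overlapped under both carbohydrates. On CHOW the gene ran from 721 to 2844 with a median of 1700.4, below every diet median named here. Without the 6 custom-diet libraries that stood apart in epithelial genes, described further on, the difference was -0.46 (adjusted p = 0.055).

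Differences of other genes of that kind follow. Msr1, the class A scavenger receptor that takes up modified lipoproteins, ran through 367, 792 and 1255 on the palmitate diets and 810.0, 1292 and 2507 on the oleate diets at its lowest, median and highest. It fell by 0.77 ± 0.19 (adjusted p = 0.0018), and 14 of 15 palmitate libraries lay below the oleate mean. Lilrb4, an inhibitory immunoglobulin-like receptor of myeloid cells, gave -0.87 ± 0.22 (adjusted p = 0.0024), a level 1.82-fold higher on oleate. Clec5a, a lectin that signals through DAP12, gave -0.57 ± 0.14 (adjusted p = 0.0017), and all 15 palmitate libraries were below the oleate mean. The endotoxin co-receptor genes fell as well: Cd14 by 0.46 ± 0.14 (adjusted p = 0.011) and Ly96, which encodes MD-2, by 0.48 ± 0.12 (adjusted p = 0.0021). In bulk tissue, fewer cells of a type and less RNA per cell cannot be told apart.

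Lipid-associated macrophages, the type that crowds around dying adipocytes, were read by 5 genes, of which 4 fell and none rose (median -0.66). Tested with starch alone 4 fell (median -0.85), and with sucrose alone 0 passed (median -0.46). Itgax encodes CD11c. Scaled counts at the lowest, median and highest library were 1596, 3862 and 6005 on SUCROSE/PALMITATE, 2559, 6826 and 8908 on SUCROSE/OLEATE, 2100.0, 3699 and 4431 on STARCH/PALMITATE and 4231, 7107 and 9442 on STARCH/OLEATE, against 169, 2073 and 2808 on CHOW. All 15 palmitate libraries lay below the oleate mean, at -0.87 ± 0.23 (adjusted p = 0.0036), and the ranges overlapped under both carbohydrates; 1 SUCROSE/OLEATE library, at 2559, stood below the next of its diet at 5582. For Trem2, whose start region is printed above, the same values were 517, 1244 and 2154 on SUCROSE/PALMITATE, 1313, 1928 and 2349 on SUCROSE/OLEATE, 555, 1051 and 1640.2 on STARCH/PALMITATE and 1615, 2645 and 3009 on STARCH/OLEATE. The STARCH/OLEATE libraries reached the highest counts, and their range overlapped that of STARCH/PALMITATE only between 1615 and 1640.2. Trem2 fell by 0.80 ± 0.21 (adjusted p = 0.0035).

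Cd9, a tetraspanin of the same cells, had a difference of -0.49 ± 0.12 (adjusted p = 0.0022). With starch its libraries did not overlap, 4349 to 5990.2 on palmitate against 6204 to 8897 on oleate. Among all tested genes, 1.43% were separated in that direction with starch, none with sucrose and none over all 33 libraries. Ctss, the lysosomal protease cathepsin S, fell by 0.66 ± 0.21 (adjusted p = 0.012), and Npc1, which exports cholesterol from lysosomes, by 0.55 ± 0.10 (adjusted p = 4.4e-05), the latter with all 15 palmitate libraries below the oleate mean. Cd36, the fatty acid transporter that both adipocytes and macrophages carry, was at -0.24 ± 0.10 (adjusted p = 0.06) and did not pass. It passed under 4 of the 9 alternative settings, with adjusted p from 0.022 to 0.25 over all of them.

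**Figure D2:**
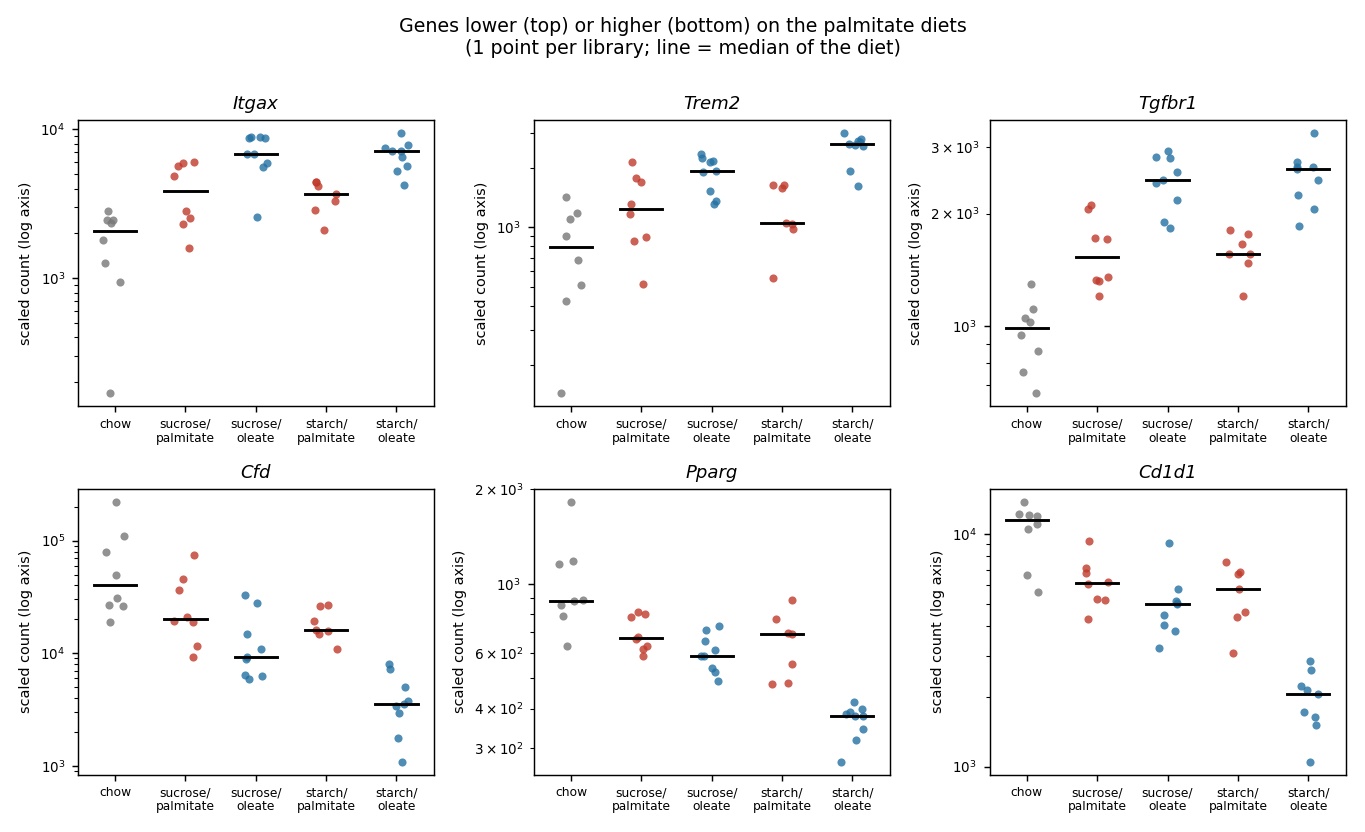
Scaled counts (log axes) of 6 genes in each library, by diet, with a line at the diet median; red is palmitate, blue oleate and grey CHOW. Itgax, Trem2 and Tgfbr1 lie lower on palmitate under both carbohydrates, and Cfd, Pparg and Cd1d1 lie higher on STARCH/PALMITATE than on any STARCH/OLEATE library.

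Genes of receptors for the constant part of IgG were also lower. Of 7 tested, some of which the macrophage list holds too, 4 fell and none rose, with a median of -0.47. Again 0 passed with sucrose alone (median -0.35), while 4 fell with starch alone (median -0.75). Fcer1g, the signalling chain shared by activating Fc receptors, ran through 800.4, 1489 and 2832 on the palmitate diets and 1518, 2380.0 and 4096 on the oleate diets at its lowest, median and highest, a fall of 0.68 ± 0.17 (adjusted p = 0.0025). The ligand-binding Fcgr3 gave -0.65 ± 0.18 (adjusted p = 0.004) and Syk, the kinase below them, -0.61 ± 0.14 (adjusted p = 8.6e-04). In each of these 3 genes the oleate libraries reached higher than any palmitate library, with overlapping ranges.

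Of 7 tested markers of resident macrophages, 2 rose and none fell, while 3 had a negative sign. The median was 0.35 over both carbohydrates, 0.46 with sucrose and -0.14 with starch. Cd36, which the adipocyte and lipid-associated macrophage lists also hold, was called lower under 4 of the 9 alternative settings. Ccl24, an eotaxin made by tissue macrophages of the alternatively activated kind, had lowest, median and highest counts of 139, 193 and 323 on SUCROSE/PALMITATE, 61.6, 96.9 and 159.7 on SUCROSE/OLEATE, 77.3, 156 and 183 on STARCH/PALMITATE and 52.6, 84.6 and 134 on STARCH/OLEATE, and it ran through 151, 230.4 and 352 on CHOW. It rose by 0.86 ± 0.16 on the log2 scale (adjusted p = 4.5e-05), and the test passed under each carbohydrate on its own, at 1.00 ± 0.22 with sucrose (adjusted p = 0.0078) and 0.73 ± 0.22 with starch (adjusted p = 0.012). Cd209g, a C-type lectin of the DC-SIGN family, rose by 0.52 ± 0.16 (adjusted p = 0.01). Cd163, the haemoglobin scavenger receptor, was at 0.35 ± 0.17 (adjusted p = 0.091) and passed under TMM scaling and after adding the lymph node list to the fit, among the 9 alternative settings. Its highest value on these diets, 1228, was read in SUCROSE/OLEATE replicate 2, where the diet median was 362; without that library the difference was 0.52 (adjusted p = 0.0036).

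Genes of transforming growth factor beta signalling and of matrix turnover were lower on palmitate, 7 of 16 tested, with none higher and a median of -0.26. Under TMM scaling, which moved the median of all genes to 0.03, 7 fell and 4 rose. Tgfbr1, the type I receptor of the growth factor, had the smallest p-value among the 491 genes. The lowest, median and highest libraries stood at 1207, 1529 and 2113 on SUCROSE/PALMITATE, 1830.1, 2461 and 2940.5 on SUCROSE/OLEATE, 1203, 1561 and 1803 on STARCH/PALMITATE and 1853, 2628 and 3278 on STARCH/OLEATE, against 664, 988 and 1299 on CHOW. Every palmitate library lay below the oleate mean, and the difference was -0.61 ± 0.13 with sucrose and -0.67 ± 0.13 with starch, an interaction of 0.06 ± 0.18 (adjusted p = 0.90). Over both it was -0.64 ± 0.09 (adjusted p = 4.5e-06), and the libraries did not overlap with starch.

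Lair1 encodes an inhibitory receptor for collagen on leukocytes. Across libraries the lowest, median and highest counts were 155, 366 and 563 on SUCROSE/PALMITATE, 500.4, 698 and 914 on SUCROSE/OLEATE, 227, 452 and 659 on STARCH/PALMITATE and 576, 774 and 983 on STARCH/OLEATE; it fell by 0.86 ± 0.19 (adjusted p = 6.3e-04), 1.81-fold higher on oleate. All 15 palmitate libraries were below the oleate mean, and on CHOW the counts, 46.5 to 296, were lower still. Plau, the urokinase plasminogen activator, fell by 0.38 ± 0.09 (adjusted p = 0.0023), Pdgfb, a growth factor for mesenchymal cells, by 0.48 ± 0.09 (adjusted p = 4.5e-05), and Runx1, a transcription factor of blood cells, by 0.62 ± 0.13 (adjusted p = 4.8e-04). For Pdgfb the CHOW counts, 895 to 1119, lay inside the range of both palmitate diets.

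Adhesion to matrix was read by 6 integrin genes tested, of which 4 fell and 1 rose. Itga4, the alpha chain of the leukocyte integrin VLA-4, fell by 0.62 ± 0.16 (adjusted p = 0.0029). Itgb1, the common beta chain, differed little but evenly: 7018, 7973 and 9376 on the palmitate diets and 8634, 9330.4 and 10195 on the oleate diets were its lowest, median and highest counts, a difference of -0.22 ± 0.04 (adjusted p = 2.2e-04). Itga6, a laminin-binding chain of endothelium and epithelium, went the other way, at 0.58 ± 0.10 (adjusted p = 4.4e-05). Outside these lists, Ctnnb1, which encodes beta-catenin of cell junctions and Wnt signalling, fell by 0.30 ± 0.05 (adjusted p = 4.4e-05), with all 15 palmitate libraries below the oleate mean.

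Adipocyte genes that were called were higher on palmitate, apart from the complement gene C3 of that list, which fell and is named here after its value was seen. Of 7 tested, 3 rose and 1 fell, 3 had a negative sign, and the median was 0.15. With starch alone 3 rose and 1 fell, and with sucrose alone 0 passed. Cd36, which this list holds too, was below 0 without passing and fell under 4 of the 9 alternative settings. Cfd encodes adipsin, a serine protease of the alternative complement pathway that adipocytes secrete. Libraries ran from lowest through median to highest at 9299, 20129 and 74784 on SUCROSE/PALMITATE, 5851, 9199 and 32851 on SUCROSE/OLEATE, 10964, 16125 and 26812 on STARCH/PALMITATE and 1089, 3518 and 7957 on STARCH/OLEATE, and 18982, 40102 and 222161 on CHOW. The rise was 1.65 ± 0.31 (adjusted p = 9.3e-05), a 3.15-fold higher level, with 14 of 15 palmitate libraries above the oleate mean. Libraries of the 2 starch diets did not overlap, while those of the sucrose diets did; 1.22% of the tested genes were separated in that direction with starch.

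Pparg, the nuclear receptor that directs adipocyte differentiation, had lowest, median and highest counts of 587, 670.3 and 811 on SUCROSE/PALMITATE, 492, 588 and 734 on SUCROSE/OLEATE, 480.5, 692 and 889 on STARCH/PALMITATE and 271, 379 and 421 on STARCH/OLEATE. It rose by 0.52 ± 0.11 (adjusted p = 3.2e-04), by 0.84 ± 0.15 with starch (adjusted p = 1.0e-04), where the libraries did not overlap, and it was at 0.20 ± 0.15 with sucrose (adjusted p = 0.41). The test of the difference between those values missed the threshold, at -0.64 ± 0.21 (adjusted p = 0.073). On CHOW, Pparg ran from 633 to 1826 with a median of 883, above all 4 diet medians. Abcb10, a transporter of the inner mitochondrial membrane, rose by 0.32 ± 0.09 (adjusted p = 0.004).

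Genes that present antigen or lipid to T cells were partly higher. Of 14 tested genes of the MHC class I list, 5 rose and none fell, with a median of 0.13. Tested by carbohydrate, 0 passed with sucrose and 6 rose with starch. Under TMM scaling 9 rose, and 3 did without the libraries set apart by epithelial genes. Cd1d1 encodes the molecule that presents lipids to natural killer T cells and is made by adipocytes as well as leukocytes. Scaled counts at the lowest, median and highest library were 4309, 6157 and 9359 on SUCROSE/PALMITATE, 3242, 5007 and 9144 on SUCROSE/OLEATE, 3067, 5769 and 7598 on STARCH/PALMITATE and 1051, 2051 and 2848 on STARCH/OLEATE, against 5643, 11433 and 13758 on CHOW. STARCH/OLEATE stood below all other diets, and the rise over both carbohydrates was 0.90 ± 0.15 (adjusted p = 2.2e-05). The palmitate minus oleate value was lower with sucrose than with starch, by an interaction of -1.19. Bcap31, a chaperone that moves MHC class I molecules out of the endoplasmic reticulum, rose by a small 0.36 ± 0.06 (adjusted p = 7.0e-06), with all 15 palmitate libraries above the oleate mean.

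In the MHC class II list, 8 of 10 tested genes were above 0, but only H2-Eb1, an antigen-presenting beta chain, rose, at 0.48 ± 0.15 (adjusted p = 0.014). With the replicate number as a block its adjusted p was 0.053. Ctss was the member that fell. The median of the list was 0.33, and the number that rose depended on the setting, at 7 under TMM scaling, 7 after adding the lymph node list described below and 4 after adding the ratio of positive control probes.

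Endothelial and adhesion genes moved in both directions, 4 higher and 5 lower of 12 tested. Here too 0 passed with sucrose alone, while 3 were higher and 4 lower with starch alone. Cdh5, the VE-cadherin of endothelial junctions, had lowest, median and highest counts of 492.8, 771 and 991 on SUCROSE/PALMITATE, 420.2, 569 and 832 on SUCROSE/OLEATE, 418, 755 and 809 on STARCH/PALMITATE and 247, 312 and 420.4 on STARCH/OLEATE and rose by 0.67 ± 0.11 (adjusted p = 2.6e-05). As with Cfd and Cd1d1, STARCH/OLEATE had the lowest median and CHOW the highest, at a median of 832. Icam2, an adhesion molecule that endothelium carries constantly, rose by 0.40 ± 0.10 (adjusted p = 0.0025). Cxcl12, a chemokine of stroma and endothelium, fell by 0.52 ± 0.10 (adjusted p = 1.5e-04); with starch its libraries did not overlap, and with sucrose 1 oleate library reached 7750.2 where the next was 4086.

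The route from Toll-like receptors to NF-kappaB was read at several steps. Of 18 genes of receptors and adaptors tested, 8 fell and 1 rose, with a median of -0.14; under TMM scaling 5 fell and 2 rose, and with the replicate block 5 fell and 1 rose. Tlr4, the endotoxin receptor, had lowest, median and highest counts of 474, 671 and 727 on SUCROSE/PALMITATE, 622, 713 and 1058 on SUCROSE/OLEATE, 531, 669.8 and 837 on STARCH/PALMITATE and 702, 792 and 914 on STARCH/OLEATE. Its difference of -0.24 ± 0.09 passed narrowly (adjusted p = 0.038), and adjusted p ran from 0.012 to 0.097 over the 9 alternative settings, 4 of which ended the call. Leaving out 1 library ended it in 10 of 33 cases, with values from -0.24 to -0.20 in these. Tlr2, which senses bacterial lipoproteins, was at -0.25 ± 0.13 (adjusted p = 0.13). Tlr5, the flagellin receptor, was the member that rose: its lowest, median and highest counts were 50.1, 59.8 and 147 on the palmitate diets and 25.3, 38.95 and 71.01 on the oleate diets, a difference of 0.83 ± 0.16 (adjusted p = 1.6e-04), with all 15 palmitate libraries above the oleate mean. Myd88, the adaptor these receptors share, fell by 0.25 ± 0.07 (adjusted p = 0.0036), but not under TMM scaling (adjusted p = 0.067).

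Downstream, 6 of 21 tested NF-kappaB genes fell, a share near the 23.6% of all tested genes, and 1 rose; under TMM scaling 3 fell and 3 rose, and the median turned from -0.05 to 0.05. Tnfaip3, the A20 enzyme that is itself switched on by NF-kappaB and restrains it, had the clearest difference. The lowest, median and highest libraries stood at 252, 371 and 459 on the palmitate diets and 376, 537 and 653 on the oleate diets, a fall of 0.51 ± 0.09 (adjusted p = 4.5e-05) with all 15 palmitate libraries below the oleate mean. The kinase genes Tbk1 and Ikbkb differed by -0.20 ± 0.05 (adjusted p = 0.0021) and -0.17 ± 0.05 (adjusted p = 0.0081), the second of which did not pass under TMM scaling (adjusted p = 0.25). Casp1, the protease that cuts interleukin 1 beta to its active form, fell by 0.42 ± 0.13 (adjusted p = 0.011).

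Classical inflammatory cytokines were mostly low on the panel and mostly did not pass. Of 28 tested genes, 5 fell and 2 rose, 25% called beside 34.4% of all tested genes, with a median of -0.12. Tnf ran through 12.7, 28.6 and 55.6 on the palmitate diets and 14.1, 42.95 and 54.4 on the oleate diets at its lowest, median and highest, -0.36 ± 0.18 (adjusted p = 0.12). Il1b was at -0.43 ± 0.32 (adjusted p = 0.31) and at 0.02 (adjusted p = 0.97) without 1 SUCROSE/OLEATE library, whose count of 199 stood far above the next, 33.5. Il6 was at 0.21 ± 0.18 (adjusted p = 0.39) and Il10 at -0.03 ± 0.16 (adjusted p = 0.91), both with diet medians between 9.72 and 14.8, near the negative control probes. Ccl2, the monocyte attractant, was far above background at 400.2, 1023 and 1885 on the palmitate diets and 883, 1068 and 1907 on the oleate diets, and its difference of -0.13 ± 0.17 did not pass (adjusted p = 0.58).

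Cytokine genes that fell included Ccl11, an eotaxin, by 0.46 ± 0.15 (adjusted p = 0.016), and Tnfsf12, which encodes TWEAK, by 0.57 ± 0.13 (adjusted p = 0.0011). Il1a fell by 0.61 ± 0.21 (adjusted p = 0.019), and was at -0.52 (adjusted p = 0.12) without the libraries set apart by epithelial genes. Its contrast was 1.83 higher with sucrose than with starch, which places it above 0 with sucrose and below 0 with starch. The fall thus lay with starch, at counts near the negative control probes on STARCH/PALMITATE. Nos2, which encodes the inducible nitric oxide synthase, rose by 0.44 ± 0.15 (adjusted p = 0.018) at counts of 17.5, 24.9 and 35.8 on the palmitate diets and 3.97, 18.5 and 26.3 on the oleate diets.

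Of 16 tested genes of natural killer and cytotoxic cells, 4 fell and none rose, a share near the 23.6% of all tested genes that fell. Klra8 encodes Ly49H, the natural killer receptor known for binding a protein of mouse cytomegalovirus. Across libraries the lowest, median and highest counts were 44.1, 67.8 and 105 on SUCROSE/PALMITATE, 103, 132 and 159 on SUCROSE/OLEATE, 37.05, 68.3 and 112 on STARCH/PALMITATE and 112, 184 and 247 on STARCH/OLEATE. The ranges overlapped only at their edges, with the highest SUCROSE/PALMITATE library at 105 above the lowest SUCROSE/OLEATE library at 103, and with starch by less than 1 count. The fall of 1.14 ± 0.17 (adjusted p = 4.8e-06) was a 2.20-fold higher level on oleate, with all 15 palmitate libraries below the oleate mean. Klra genes are close copies of each other, so the count of this probe is uncertain where it captures relatives. Klrd1, which encodes CD94, gave -0.48 ± 0.14 (adjusted p = 0.0055) and Xcl1, a chemokine of cytotoxic cells, -0.47 ± 0.14 (adjusted p = 0.0083).

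Receptors for interleukins were lower in 10 of 27 tested genes and higher in 2, with a median of -0.23. By carbohydrate, 10 fell with starch (median -0.27) and 0 passed with sucrose (median -0.06). Il12rb2, the signalling chain of the interleukin 12 receptor, ran through 13.02, 28.3 and 39.2 on the palmitate diets and 26.4, 51.2 and 76.1 on the oleate diets at its lowest, median and highest and fell by 0.82 ± 0.15 (adjusted p = 4.5e-05). Il10rb, shared by the receptors for interleukin 10 and its relatives, fell by 0.56 ± 0.10 (adjusted p = 4.4e-05), and Crlf2, a receptor for thymic stromal lymphopoietin that was outside that list, by 0.41 ± 0.07 (adjusted p = 3.0e-05). In Il12rb2 and Il10rb all 15 palmitate libraries were below the oleate mean, and in Crlf2 14 were. Cd83, a marker of mature dendritic cells, fell by 0.58 ± 0.16 (adjusted p = 0.0045), and Bax, which opens mitochondria during cell death, by 0.29 ± 0.06 (adjusted p = 6.3e-04). Of 15 tested genes of the dendritic cell and costimulation list 3 fell and none rose, 20% called beside 34.4% of all tested genes. Their median was -0.0031, and 6 rose under TMM scaling. The 14 tested genes of the cell death list were split at 2 that fell and 2 that rose, 28.6% called. Their median was 0.07, and 5 rose under TMM scaling. T cell genes moved little: 1 of 20 tested rose and 1 fell.

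The size of the fat difference depended on the carbohydrate for a small part of the genes. With starch 41 genes were higher on palmitate (8.35%) and 119 lower (24.2%), 32.6% in all, and with sucrose 11 were higher (2.24%) and 7 lower (1.43%), 3.67% in all. Leaving out 1 library moved the counts with sucrose between 1 and 16 higher and between 1 and 17 lower. After adding the lymph node list described below, 16 were higher and 42 lower with sucrose, and 41 higher and 27 lower with starch. Of 160 genes called with starch, 128 had the same sign with sucrose and 10 were called there too, beside 18 of all 491 tested genes called with sucrose (3.67%). The share of equal signs over all tested genes was not taken. The difference between both contrasts was itself past the threshold in 27 genes (5.5%), 20 where the palmitate minus oleate value was higher with sucrose (4.07%) and 7 where it was lower (1.43%). When the ratio of the positive control probes A and B was added to the fit, edgeR's test called 0 interactions, with 79 genes at an unadjusted p below 0.05 beside 87 without the covariate and an adjusted p of 0.056 for Cd79b. That ratio comes from spiked control molecules. With sucrose it spanned 2.99 to 3.56 under palmitate and 2.92 to 3.07 under oleate; with starch it spanned 2.92 to 3.16 under palmitate and 3.11 to 3.28 under oleate. Its medians were ordered in opposite ways under sucrose and starch, and its part in the interaction was not tested beyond this covariate.

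**Figure D3:**
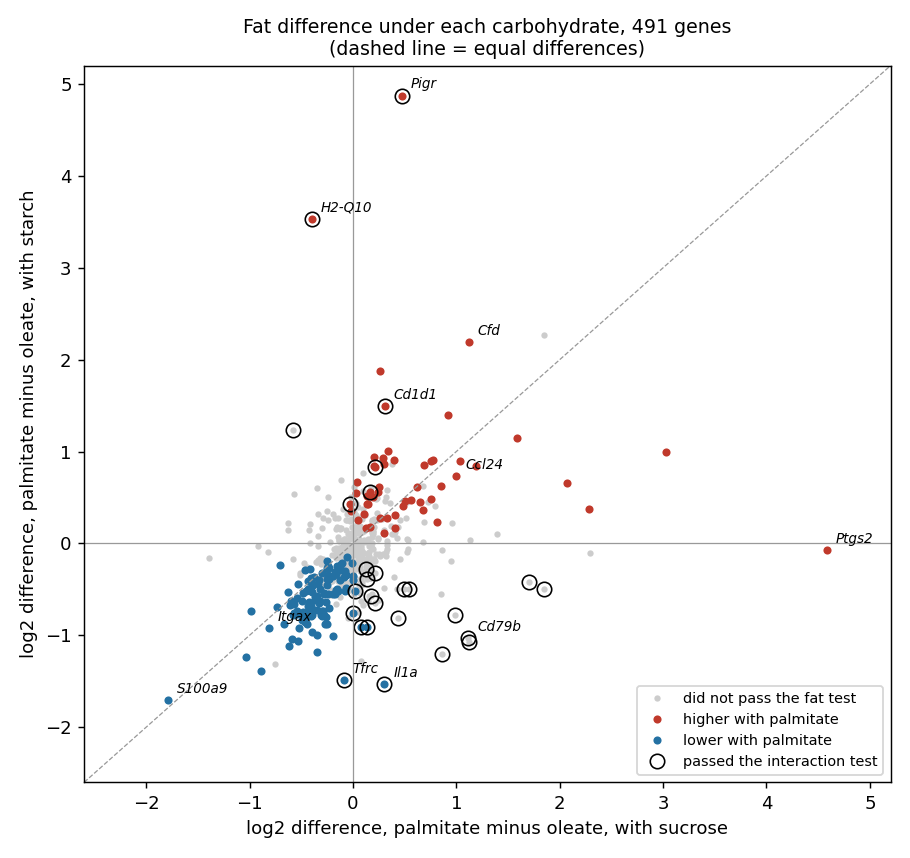
Log2 difference between palmitate and oleate with sucrose (horizontal axis) and with starch (vertical axis) for 491 genes; colour marks genes past the threshold over both carbohydrates and rings mark the 27 genes past it for the interaction. Of the 169 coloured points 160 have the same sign on both axes, which calling on the mean of both contrasts itself favours. Among the 169, 136 differ more with starch, beside 324 of all 491 tested genes.

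Tfrc encodes the transferrin receptor, through which cells take up iron. Libraries ran from lowest through median to highest at 629.7, 804 and 1142 on SUCROSE/PALMITATE, 519, 797 and 1616 on SUCROSE/OLEATE, 727, 893 and 1165 on STARCH/PALMITATE and 1539, 2542 and 4066 on STARCH/OLEATE, and 688, 972 and 1849 on CHOW. STARCH/OLEATE stood above the other custom diets except for the highest SUCROSE/OLEATE library, and with starch the libraries did not overlap. The fat difference was -1.49 ± 0.21 with starch (adjusted p = 1.3e-06) and -0.09 ± 0.20 with sucrose (adjusted p = 0.83), and the interaction was 1.40 ± 0.28 (adjusted p = 0.0027). That value became 1.36 after adding the positive control ratio (adjusted p = 0.095) and 1.04 after adding the lymph node list described below (adjusted p = 0.054).

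Of 14 tested B cell genes, 3 fell over both carbohydrates, a share near the 23.6% of all tested genes, and none rose, while 6 passed the interaction, all in the same direction, and the median interaction of the list was 0.79 beside 0.11 for all genes. Cd79b, a signalling chain of the B cell receptor, had lowest, median and highest counts of 37.8, 75.2 and 259 on SUCROSE/PALMITATE, 14.2, 47.5 and 78.1 on SUCROSE/OLEATE, 23.6, 52.3 and 112 on STARCH/PALMITATE and 47.8, 109 and 179.6 on STARCH/OLEATE. The difference was 1.12 ± 0.36 with sucrose (adjusted p = 0.058), and the gene fell with starch, at -1.03 ± 0.37 (adjusted p = 0.031), an interaction of 2.15 ± 0.52 (adjusted p = 0.015). Tnfrsf17, a plasma cell receptor, gave 0.86 ± 0.22 (adjusted p = 0.017) at counts between 22.6 and 75.9 on the 4 diets.

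Cd22, Btk and Blnk, which signal in B cells, were the members that fell over both carbohydrates, at -0.60 ± 0.18 (adjusted p = 0.0093), -0.66 ± 0.16 (adjusted p = 0.0021) and -0.53 ± 0.15 (adjusted p = 0.0069). Btk and Blnk are made by macrophages as well. The epididymal pad can hold lymphoid tissue, and 12 tested genes of a lymph node list were therefore read beside these. With sucrose the summed level of its 14 measured genes ran from 1022 to 3503 under palmitate and 1459 to 7086 under oleate, and with starch from 960.1 to 2345 under palmitate and 1694 to 3017 under oleate. With that list's mean as a covariate, which holds Cd79b itself, the interaction of Cd79b was 0.41 (adjusted p = 0.31). The part of lymphoid tissue in the interaction was not tested otherwise.

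Mast cells were read by 4 genes, of which 3 fell, Fcer1g of the macrophage list among them. Fcer1a, the alpha chain of the IgE receptor, ran through 26, 34.9 and 77.04 on SUCROSE/PALMITATE, 24.03, 38.1 and 59.3 on SUCROSE/OLEATE, 34.4, 41.3 and 58.2 on STARCH/PALMITATE and 45.1, 87.6 and 144 on STARCH/OLEATE at its lowest, median and highest. STARCH/OLEATE had the highest median, and its range overlapped those of the other diets. The difference was -0.91 ± 0.22 with starch (adjusted p = 0.0024) and 0.14 ± 0.21 with sucrose (adjusted p = 0.75), an interaction of 1.04 ± 0.31 (adjusted p = 0.032). Over both carbohydrates it was -0.39 ± 0.15 (adjusted p = 0.047), a call that 6 of the 9 alternative settings ended, with adjusted p from 0.036 to 0.093, and that leaving out any of 18 single libraries ended too. Il1rl1, the receptor for interleukin 33, fell by 0.53 ± 0.14 (adjusted p = 0.0032).

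Il1a and Ski also passed the interaction. Il1a, an alarm cytokine kept inside cells, ran through 3.97, 5.29 and 12.5 on STARCH/PALMITATE and 9.03, 20.2 and 29.3 on STARCH/OLEATE, the first of which lies at the level of the negative control probes; the interaction was 1.83 ± 0.42 (adjusted p = 0.011). Ski, a repressor of transforming growth factor beta signalling, gave 0.41 ± 0.10 (adjusted p = 0.018). Cd1d1 and Bcap31 passed in the other direction, at -1.19 ± 0.29 (adjusted p = 0.017) and -0.40 ± 0.11 (adjusted p = 0.024): both were lowest on STARCH/OLEATE.

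**Figure D4:**
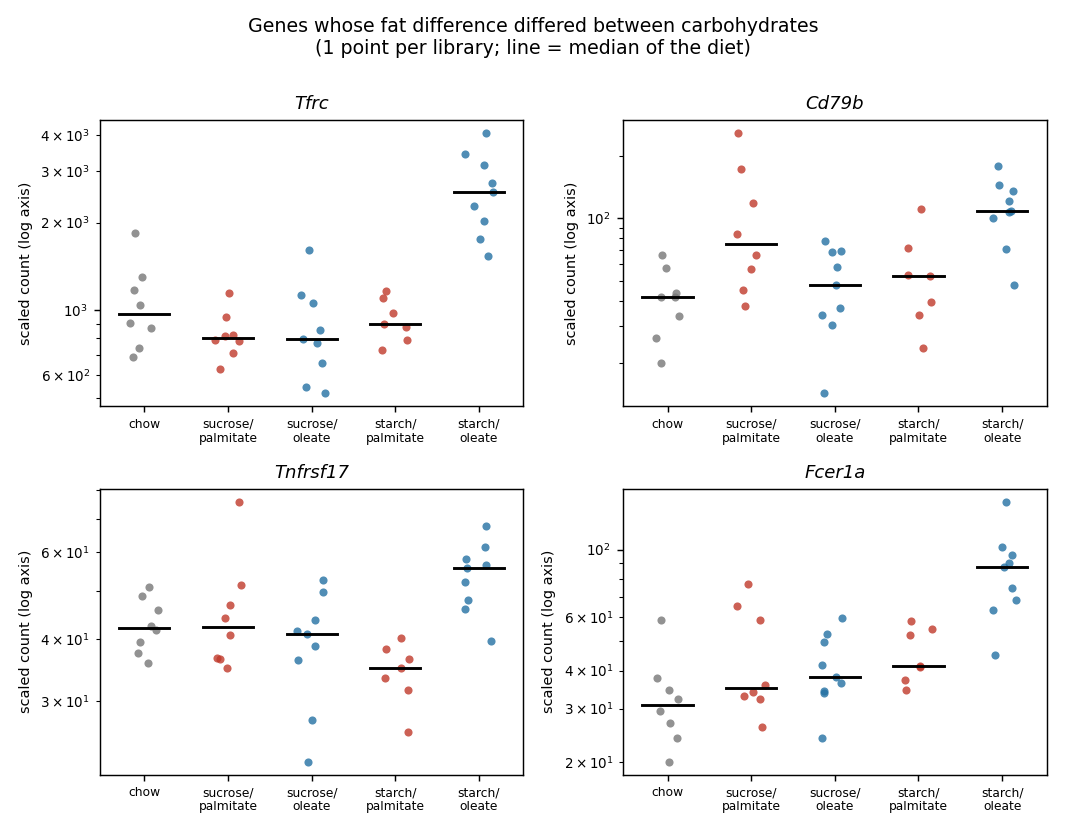
Scaled counts (log axes) of 4 genes in each library, by diet, with a line at the diet median; red is palmitate, blue oleate and grey CHOW. Tfrc and Fcer1a have their highest medians on STARCH/OLEATE, as does Tnfrsf17, and Cd79b has the higher median on palmitate with sucrose and on oleate with starch.

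Several of the highest differences rested on few libraries. In 6 of the 33 custom-diet libraries the mean log level of the epithelium list exceeded the median of all libraries by over 3 times the median absolute deviation: SUCROSE/PALMITATE replicate 2, STARCH/PALMITATE replicates 1, 3 and 7, and STARCH/OLEATE replicates 2 and 6. Of 8 tested genes of that list, 4 rose, with a median of 0.99. With sucrose its summed level ran from 1749 to 8879.6 under palmitate and 1305 to 3415 under oleate, and with starch from 1496 to 41969 under palmitate and 1822 to 8796 under oleate. Pigr, which carries immunoglobulin A through epithelia, counted 8629 in STARCH/PALMITATE replicate 3, where the next library of that diet had 273. Its difference was 2.67 ± 0.68 (adjusted p = 0.0028) and 0.64 (adjusted p = 0.35) without that library. H2-Q10, a secreted class I molecule, counted 8669 in the same library beside 389.6 in the next, and went from 1.57 ± 0.38 (adjusted p = 0.0018) to 0.42 (adjusted p = 0.16) without it. Mme, the protease neprilysin, went from 1.07 ± 0.33 (adjusted p = 0.011) to 0.48 (adjusted p = 0.17).

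Ptgs2, the inducible cyclooxygenase, was at 2.25 ± 0.86 (adjusted p = 0.038), yet 12 of 15 palmitate libraries lay below the oleate mean. It counted 9674 in SUCROSE/PALMITATE replicate 3, 5920.0 in STARCH/PALMITATE replicate 7 and 1009.9 to 2575 in 5 of the 9 STARCH/OLEATE libraries, and at most 112 in the others. Without either of the 2 palmitate libraries the difference was -0.13 (adjusted p = 0.90) or -0.02 (adjusted p = 0.99). C4bp, a complement inhibitor, was at 2.01 ± 0.80 (adjusted p = 0.047) with single libraries at 480.2 and 315; without STARCH/PALMITATE replicate 7 it was 0.93 (adjusted p = 0.40), and 18 of 33 libraries ended the call when left out. Defb14, an antimicrobial peptide, and Ncam1, an adhesion molecule of nerve and natural killer cells, were at 1.36 ± 0.51 (adjusted p = 0.035) and 1.32 ± 0.47 (adjusted p = 0.024), and each lost its call without any of 3 palmitate libraries.

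**Figure D5:**
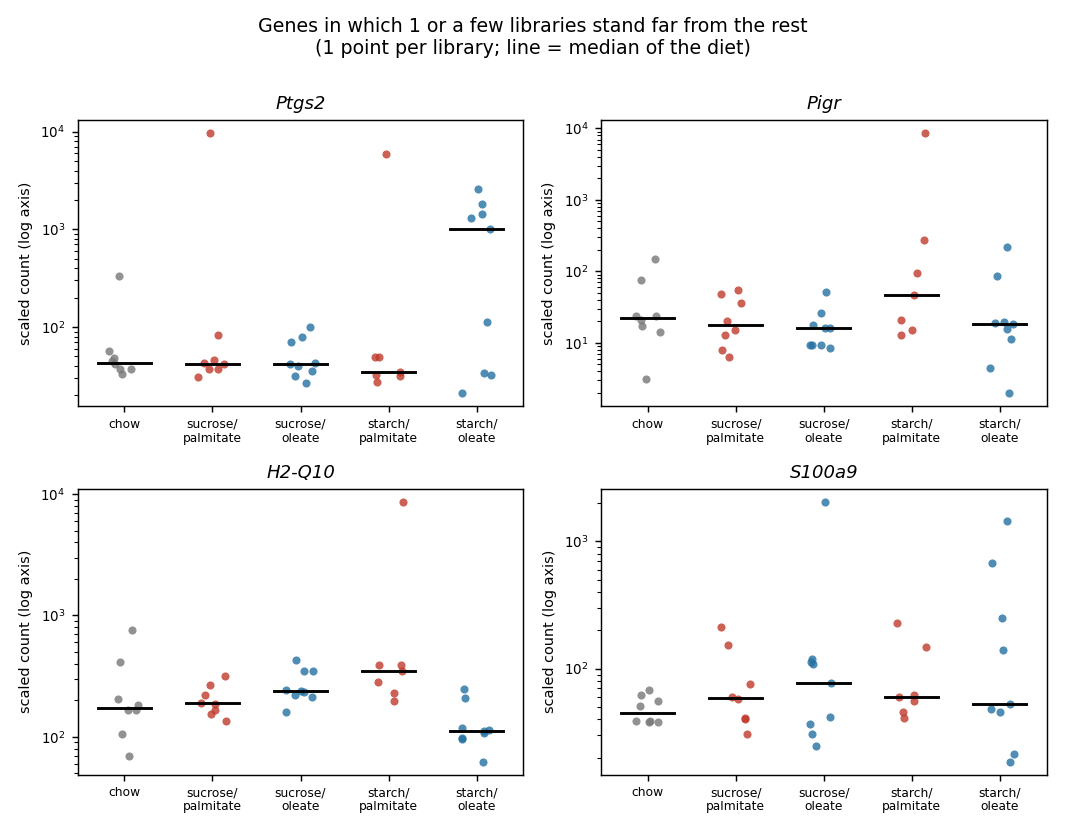
Scaled counts (log axes) of 4 genes in each library, by diet, with a line at the diet median; red is palmitate, blue oleate and grey CHOW. In Pigr and H2-Q10 the same STARCH/PALMITATE library stands far above the rest, in Ptgs2 a palmitate library stands apart under each carbohydrate, and in S100a9 1 SUCROSE/OLEATE library does.

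Neutrophil genes were called in both directions, 4 lower and 2 higher of 8 tested, and the calls on S100a9 and Cxcr2 rested on oleate libraries. After adding the lymph node list 1 was called, higher, and edgeR called 0 without the libraries set apart by epithelial genes, where 2 had an unadjusted p below 0.05. S100a9, a subunit of the calprotectin of neutrophils, counted 2051 in SUCROSE/OLEATE replicate 2, where the next library had 120.2, and 1456 in STARCH/OLEATE replicate 1. It was at -1.75 ± 0.55 (adjusted p = 0.013) and at -0.72 (adjusted p = 0.20) without the first, and at -1.28 (adjusted p = 0.053) without the second. Cxcr2, the receptor that draws neutrophils into tissue, went from -1.14 ± 0.42 (adjusted p = 0.033) to -0.54 (adjusted p = 0.25) and -0.76 (adjusted p = 0.13) without the same libraries, and 4 others also ended its call when left out. In the same SUCROSE/OLEATE library, Itgax was the lowest and Cxcl12, Icam2, Tlr4, Myd88 and Il1b the highest of its diet.

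Background was read from control probes without a target. The scaled mean of the 8 negative control probes was 8.38 ± 2.59 (SD, n = 8) under palmitate with sucrose and 6.88 ± 0.91 (n = 9) under oleate, and with starch 8.02 ± 1.47 (n = 7) and 7.23 ± 1.15 (n = 9). Its means were thus higher under palmitate, by less than the larger SD of each pair. Of the called genes with a mean below 30 over the pooled libraries of the 4 diets, 11 were higher and 3 lower. Among all calls 53 were higher and 116 lower. The number of tested genes at that low level was not counted. Il22ra2, a decoy receptor for interleukin 22, ran through 5.21, 13.2 and 87.3 on the palmitate diets and 3.97, 7.09 and 13.1 on the oleate diets at its lowest, median and highest (1.37 ± 0.36, adjusted p = 0.0036). Cd46, a complement regulator, ran through 16.3, 18.9 and 131 on the palmitate diets and 7.22, 13.7 and 19.6 on the oleate diets (1.02 ± 0.22, adjusted p = 6.5e-04). C8g, a complement component, and Il17re, a receptor chain for interleukin 17C, were somewhat higher in counts and gave 0.97 ± 0.21 (adjusted p = 6.3e-04) and 1.16 ± 0.25 (adjusted p = 6.3e-04). The part of background in these differences was not tested.

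Depth and scaling bear on all of these values. Total counts of the gene probes were 396391 to 888687 over the 33 libraries, with a median of 643310. Of the 14 reference genes, 7 passed the fat test themselves, 4 higher and 3 lower, the most distant being Gusb at -0.67 and Sdha at 0.43. Under TMM scaling 102 genes were higher and 94 lower, 47.96% of calls lower beside 68.6% here, and all 169 called genes kept their sign.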

How the data were processed

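The authors deposited a table of whole-number NanoString barcode counts per probe for 48 libraries, unscaled as the values show; the counting software is not given in the sources used here. RNA was extracted with a lipid tissue column kit, per the labels' protocols. Libraries were grouped by title. Counts were scaled by the geometric mean of 14 reference genes, 547 immune genes were filtered at a mean count of 10, and 491 were fitted with 1 mean per diet over all 48 libraries by edgeR 4.0.16 (R 4.3.3; quasi-likelihood test, Benjamini-Hochberg). The fat effect, the effect within each carbohydrate and their difference were contrasts of that fit. Alternatives were TMM scaling, no filter, a minimum of 30, the replicate number as a block, the 4 custom diets alone, DESeq2 1.42.0, 2 covariates, libraries left out by the epithelium list, and each library left out. The fit was tested on simulated data. Replicate numbers did not pair libraries: the mean correlation of deviations was -0.069 over 46 same-numbered pairs. No 2 libraries were alike within counting noise. Of 561 gene probes, 558 matched RefSeq symbols. Genes were named by rule: the 10 highest, 10 lowest and 10 most significant differences, the leading 3 called members of each of 31 lists, the 8 leading interactions, fixed genes of interest, and genes held by 1 library. The members and lists were chosen with earlier results of these data known. Depth per library is given with the results. A gene that the naming rule selects is not reported here.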

Additional observations from a re-analysis of the deposited data

Results flagged for a closer look

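Among 332 sets of libraries, each 1 named gene on 1 custom diet, 29 held a library far from the others of its diet, where chance gives about 1 in 20. That rate is no test of the 29. The sets share libraries, and genes named for extreme differences include some held by 1 library. Many lay in SUCROSE/OLEATE replicate 2. There the scaled count of Itgax was low at 2559, Il1rl1 at 198 and Il10 at 5.60. In the same library Icam2 was high at 453, Cxcl12 at 7750.2, Tlr4 at 1058, Myd88 at 463, Il1b at 199, S100a9 at 2051 and Cxcr2 at 274. In STARCH/OLEATE replicate 6, Lilrb4 was low at 4721, Ctss at 15165, Il12rb2 at 34.5 and Cd22 at 124. STARCH/OLEATE replicate 1 was high for Ccl2 at 1907 and low for Nos2 at 3.97, and STARCH/OLEATE replicate 3 was low for Il1a at 9.03. STARCH/PALMITATE replicate 3 was high for Tlr5 at 147 and for H2-Q10 at 8669. STARCH/PALMITATE replicate 7 was high for Ptgs2 at 5920.0, C4bp at 315, Defb14 at 67.7 and Il22ra2 at 52.9. On SUCROSE/PALMITATE, Ptgs2 was high in replicate 3 at 9674, Il22ra2 in replicate 2 at 87.3 and Cd46 in replicate 4 at 131, and Il17re was low in replicate 1 at 19.1. On SUCROSE/OLEATE, Bcap31 was high in replicate 6 at 5302 and Syk low in replicate 5 at 886.

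In 10 named genes the palmitate minus oleate contrast differed between sucrose and starch by edgeR's interaction test. The sucrose contrast was the higher by 2.15 on the log2 scale in Cd79b, 1.83 in Il1a, 1.40 in Tfrc, 1.04 in Fcer1a, 0.86 in Tnfrsf17 and 0.41 in Ski. The difference was -0.40 in Bcap31, -1.19 in Cd1d1, -3.93 in H2-Q10 and -4.40 in Pigr; the last 2 genes counted far highest in STARCH/PALMITATE replicate 3.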

How the results depend on the processing

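Of the 169 genes called for the fat effect, 111 were called in the same direction under each of the 9 alternatives that tested them (35 higher, 76 lower). The macrophage list kept 14 to 16 lower genes and no higher one. Counts below are genes higher, then lower. TMM scaling gave 102 and 94 for the fat effect, with 47.96% of calls lower beside 68.6%, 17 and 19 with sucrose, 82 and 67 with starch, and 14 and 16 for the interaction. The replicate block, whose numbers did not pair libraries, gave 43 and 103 for the fat effect, 1 and 1 with sucrose, 34 and 103 with starch, and 15 and 4 for the interaction; 1 of 33 libraries correlated best with its own number. The custom diets alone gave 20 and 27 with sucrose, and DESeq2 gave 16 and 13. The positive control ratio left 1 and 0 with sucrose, where 51 genes had an unadjusted p below 0.05, and 0 and 0 for the interaction. The lymph node covariate gave 16 and 42 with sucrose, 41 and 27 with starch, and 0 and 1 for the interaction (82 at an unadjusted p below 0.05). Without the libraries set apart by the epithelium list, counts were 23 and 18 with sucrose, 28 and 63 with starch and 14 and 11 for the interaction. Leaving out 1 library gave 44 to 65 and 100 to 137 for the fat effect, 1 to 16 and 1 to 17 with sucrose, 27 (without STARCH/PALMITATE replicate 3) to 47 and 83 to 151 with starch, and 14 to 26 and 4 to 12 for the interaction. The sign of small, uncalled differences turned in Il10 (0.044 under TMM; -0.075 to 0.037 without 1 library), Il1b (-0.54 to 0.016 without 1 library, the latter SUCROSE/OLEATE replicate 2), Ski (0.0073, TMM) and Cd79b (-0.068 with the block; -0.12 to 0.11 without 1 library). The call on Ptgs2 turned to -0.22 with the block, and ran from -0.13 (without SUCROSE/PALMITATE replicate 3; -0.02 without STARCH/PALMITATE replicate 7) to 2.43 without 1 library. The cause was not tested. Genes near the negative control probes are limited by background, and effects with sucrose depended most on single libraries.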
